A study of Mus musculus with 12 samples.

Results

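The 77 genes of the cytoplasmic ribosomal proteins were followed in 12 RNA sequencing libraries of HDAC3-deficient and control mouse bone marrow cells. A gene was taken as a member when its symbol was that of a protein of the large or small ribosomal subunit (Rpl or Rps with a number, or Rplp0, Rplp1, Rplp2 and Rpsa; the Rps6 kinases were left out) and it reached at least 10 FPKM in all control libraries. FPKM is the number of fragments per kilobase of transcript, scaled to the mapped fragments of the library. All 77 genes with such a symbol were listed in all 3 expression tables and all 77 passed the minimum, so that it removed none. The lowest control value was 20.3 FPKM, for Rpl5 in LMPPs. Of the 77, 46 encode proteins of the large subunit and 31 encode proteins of the small subunit. The tables list 17445 genes for LMPPs, 16821 for CD115-CDPs and 16896 for BM pDCs, of which 13759 stand in all 3.

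The study asked what HDAC3, a histone deacetylase, does along the path from progenitors to plasmacytoid dendritic cells. Control animals were Hdac3 fl/fl and HDAC3-deficient animals were Hdac3 fl/fl CreERT2, on the C57BL/6 background. In the latter the tamoxifen-activated recombinase is driven from the Rosa26 locus, which is active in nearly all cell types, so that deletion was not limited to the dendritic lineage. Both genotypes received tamoxifen for 5 days and cells were sorted 7 days later, so that the controls carry the floxed allele and the drug but not the recombinase. Sorted cells were LMPPs (lymphoid-primed multipotent progenitors), CD115-CDPs (the common dendritic cell progenitors that lack CD115) and BM pDCs (bone marrow plasmacytoid dendritic cells). Each cell type had 2 control and 2 HDAC3-deficient libraries. No source used here says whether the libraries of a group came from separate mice or gives the age of the animals, so that p-values measure the spread between these libraries, which may be technical.

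Each ribosome holds 1 copy of most of these proteins, bound to the ribosomal RNAs. Their genes are scattered over the genome and are among the most strongly transcribed in growing cells. Their mRNAs begin with a C followed by a run of pyrimidines (the 5′ terminal oligopyrimidine or TOP tract), through which mTOR signalling and the RNA-binding protein Larp1 set how much of each mRNA is translated. Progenitors that divide make many ribosomes, whereas mature pDCs seldom divide and, when activated, translate large amounts of type I interferon.

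The starts of the transcripts that led the differences described here are shown for the TOP tract that the family shares. RefSeq promoter windows (GRCm38.p6) were at hand for 57 of the 77 members. A C within 5 bases of an annotated start, followed directly by at least 4 pyrimidines, was found for 27 of the 57 (47.4%) and for 21.2% of all 27025 genes with a window. Each line gives 30 bases on the sense strand, of which the first 10 lie before the annotated start, and capitals mark the tract.
Rpsa (chr9:120127756-120127785, plus strand): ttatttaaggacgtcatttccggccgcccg
Rplp0 (chr5:115559457-115559486, plus strand): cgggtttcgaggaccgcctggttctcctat
Rplp2 (chr7:141447641-141447670, plus strand): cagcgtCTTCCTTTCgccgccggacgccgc
Rps10 (chr17:27635225-27635254, minus strand): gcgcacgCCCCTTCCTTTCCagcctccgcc
Rps24 (chr14:24490668-24490697, plus strand): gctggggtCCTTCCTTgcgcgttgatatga
Rps15a (chr7:118116128-118116157, minus strand): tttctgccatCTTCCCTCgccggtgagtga
Rpl12 (chr2:32961702-32961731, plus strand): agcaggatccgtCTTTTCggctttcggctc
Rpl27 (chr11:101442235-101442264, plus strand): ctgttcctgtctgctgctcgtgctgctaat
Rpl31 (chr1:39367841-39367870, plus strand): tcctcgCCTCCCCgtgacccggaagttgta
Rpl35a (chr16:33056472-33056501, plus strand): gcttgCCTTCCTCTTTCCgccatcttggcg
Rpl39 (chrX:37085203-37085232, minus strand): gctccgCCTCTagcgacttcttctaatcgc
Rpl5 (chr5:107900518-107900547, plus strand): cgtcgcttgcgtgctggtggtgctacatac

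The first 5 lines are members that rose most in HDAC3-deficient BM pDCs, and those from Rpl27 on are members with the largest rises in LMPPs by their own rows. Rps15a and Rpl12 rose in both, as did Rps10 and Rpl5. Rpsa, Rplp0, Rpl27 and Rpl5 have no tract at the annotated start shown, whereas the others have one of 5 to 13 bases. Rpl35a and Rps24 also have annotated starts that are not shown and have no tract. In the whole 300-base window around the start, CTTTCC on the sense strand was found for 40.4% of the members and 16.0% of all genes, CTTTTC for 21.1% and 12.9%, TCTTTC for 31.6% and 13.2%, and CTCTTTC, which contains TCTTTC, for 22.8% and 4.60%. On either strand, CCGGAAG, the core letters bound by Ets family factors, was found for 42.1% of the members and 9.93% of all genes, and GCCATNTT, the letters of a YY1 site, for 19.3% and 6.96%. The median log2 difference between genotypes was 0.47 for the 27 members with a tract and 0.44 for the 30 without in LMPPs, 0.17 and 0.19 in CD115-CDPs, and 0.30 and 0.32 in BM pDCs. An annotated start can lie some bases from the start used in these cells.

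Hdac3 itself was lower in every library labelled HDAC3-deficient. In LMPPs it was 56.5 and 66.4 FPKM in controls and 16.9 and 9.87 FPKM in HDAC3-deficient libraries. In CD115-CDPs it was 58.2 and 39.6 against 12.1 and 0.93 FPKM, and in BM pDCs 38.9 and 37.8 against 15.6 and 15.9 FPKM. Deletion removes exon 3 only, so that fragments from the rest of the gene are still counted. The second HDAC3-deficient CD115-CDP library stood apart: it had 11288 genes above 0 FPKM, against 13684 to 15173 in the other 3, and correlated with its partner at r = 0.871 over genes, against 0.977 between the controls. The first LMPP control held 9276 FPKM of a list of 7 erythroid genes, most of it globin; the remaining LMPP libraries held 103 to 275 FPKM. The 9 pDC markers summed to 10795 and 11220 FPKM in BM pDC controls and to 5598 and 5198 FPKM in HDAC3-deficient BM pDCs, all 9 were above 1 FPKM in both controls and none was at 0 in any BM pDC library. All 5 progenitor markers, Kit among them, were above 1 FPKM in the controls of all 3 cell types, so that this limit does not separate them. BM pDC libraries held 18117748 to 18462220 estimated fragments. For LMPPs and CD115-CDPs the files give FPKM alone, so that their depth is unknown.

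As a family, the ribosomal protein genes took 13.3% and 13.5% of all FPKM in LMPP controls and 14.8% and 18.0% in HDAC3-deficient LMPPs. In BM pDCs the share was 15.6% and 16.3% in controls and 16.8% and 19.2% in HDAC3-deficient libraries. In both cell types the HDAC3-deficient libraries lay above the controls, the second further than the first. In CD115-CDPs the share was 10.5% and 7.96% in controls and 12.9% and 8.03% in HDAC3-deficient libraries, so that the groups overlapped and each genotype spread widely. The large subunit made up 54.2% to 56.9% of the family's FPKM in all 12 libraries. Counted as fragments, without division by length, the family took 5.23% and 5.56% of the estimated counts in BM pDC controls and 5.67% and 6.77% in HDAC3-deficient BM pDCs. With 2 libraries against 2 an exact permutation test of a single value cannot reach 0.05, and none was run. In bulk RNA a change in the number of cells of a type and a change in RNA per cell cannot be told apart.

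**Figure D1:**
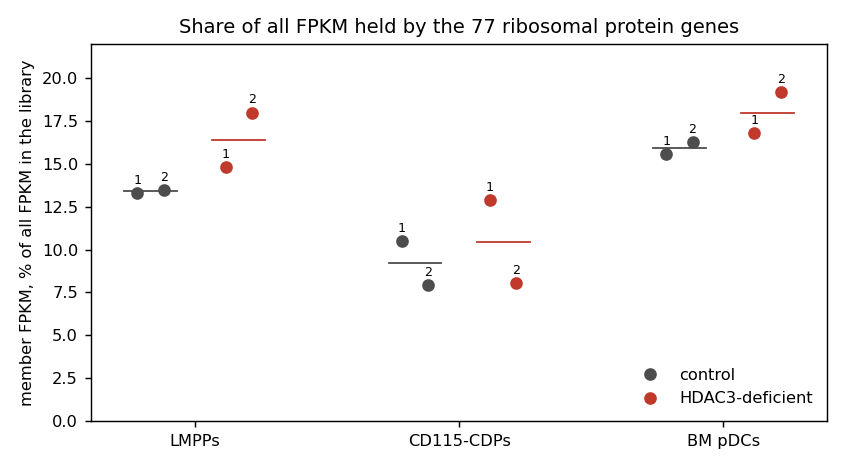
Each point is 1 library, numbered as labelled, and gives the FPKM of the 77 ribosomal protein genes as a percentage of all FPKM in it; bars are means of 2 libraries. The HDAC3-deficient libraries (red) lie above the controls (grey) in LMPPs, up to 18.0%, and in BM pDCs, up to 19.2%, and overlap them in CD115-CDPs, at 12.9% and 8.03% against 10.5% and 7.96%.

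Control levels differed widely between members, also after division by transcript length. The most abundant in LMPP controls were Rpl32 (3238 and 3274 FPKM), Rps19 (2972 and 2685 FPKM) and Rpl13 (2875 and 2726 FPKM), and the least abundant were Rps15a (65.2 and 58.0 FPKM), Rpl31 (41.7 and 38.7 FPKM) and Rpl5 (24.5 and 20.3 FPKM). In CD115-CDPs, Rpl32, Rpl35 and Rpl13 led, with control means of 2062, 2058 and 2009 FPKM. Their controls spread too widely to rank them, since Rpl32 was 2521 in one and 1604 FPKM in the other. Rpl22 (45.5 and 32.5 FPKM), Rpl15 (40.9 and 39.7 FPKM) and Rps15a (52.2 and 34.1 FPKM) were lowest there, and their controls overlapped. In BM pDCs the order was another one. Rps27 (2595 and 2745 FPKM), Rpl10 (2273 and 2444 FPKM) and Rps26 (1868 and 2003 FPKM) led, and Rpl22 (104 and 116 FPKM), Rps15a (76.4 and 83.7 FPKM) and Rps6 (27.2 and 29.2 FPKM) were lowest.

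The tables were normalised separately, so that levels in one are set beside those in another only as a description. Across the 77 members, log2 control levels correlated at r = 0.88 between LMPPs and CD115-CDPs but at r = 0.48 between LMPPs and BM pDCs and at r = 0.48 between CD115-CDPs and BM pDCs. For 20 members the highest and lowest control means differed more than 3-fold between tables and for 4 more than 10-fold. Rpl5, which carries the 5S rRNA into the large subunit, had a control mean of 22.4 FPKM in LMPPs, 47.0 FPKM in CD115-CDPs and 846 FPKM in BM pDCs. Rps6, the substrate of S6 kinase, went the other way, with 395, 901 and 28.2 FPKM. Proteins present in equal number in a ribosome were thus listed at unequal mRNA levels.

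Other entries of the tables may hold fragments of these genes, which bears on single levels. The LMPP table holds 1030 transcripts with no gene name. The authors' pathway column assigns 148 of them to the protein of a single member, and together these touch 53 members. For 8 members the unnamed transcripts held more than 50% of the summed control FPKM. With them Rpl5 summed to 615 and 550 FPKM in the controls, of which the unnamed transcripts held 96.2%. That share was 96.7% for Rpl15, 95.1% for Rpl31, 86.5% for Rpl27 and 84.9% for Rps6. In BM pDCs, Rpl31-ps12, listed at chr16:16819713-16820196 in GRCm38, had 1625 and 1689 control FPKM, above Rpl31 itself (1032 and 1066 FPKM), against 0.34 and 0.53 FPKM in LMPP controls. The level of a single member, and its difference between tables, is therefore uncertain. For some of these members in LMPPs the sum, or its log2 difference, is given as well. In CD115-CDPs and BM pDCs unnamed transcripts were not matched, so that the differences of these members stand there without such a sum. For BM pDCs the sum of Rpl31 and the named copy Rpl31-ps12 is given.

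In LMPPs all 77 members had a positive log2 difference (HDAC3-deficient minus control, on log2 of FPKM plus 0.5), as they did after median ratio scaling, and 65 did after quantile normalisation. The genes as a whole were lower. The median over the 77 members was 0.43, with a range of 0.03 to 1.04, against −0.23 over all 11146 genes tested, and was 0.43 for the large and 0.44 for the small subunit. Both HDAC3-deficient libraries lay above both controls for 63 of the 77 members, and the groups overlapped for 14. Over all genes tested, 17.6% lay above and 48.2% lay below both controls. By limma, with Benjamini-Hochberg adjustment over all genes tested, 9 members rose and none fell at an adjusted p under 0.05, which is 11.7% of the members. Of all genes tested, 4.31% rose and 18.8% fell. Without the filter on low values 0 members rose (against 0.306% of all genes), and without the trend in limma 3 did (3.90% against 2.04%). At an unadjusted p under 0.05, 22 members were higher and 0 lower. The share of all genes at that limit was not computed for LMPPs, so that this count cannot be weighed against it.

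By their own rows, the 5 members that rose most in LMPPs belong to the large subunit. Rpl27 (chr11:101442245-101445596) went from 134 and 111 FPKM in controls to 184 and 343 FPKM, a log2 difference of 1.04 ± 0.24 (SE; limma adjusted p = 0.0068). Rpl31 (chr1:39367851-39371911), a protein beside the exit of the peptide tunnel, went from 41.7 and 38.7 to 68.3 and 96.1 FPKM (1.0 ± 0.18, limma adjusted p = 0.0019). The HDAC3-deficient libraries did not overlap the controls for either. With the unnamed transcripts added, Rpl27 summed to 940 and 874 FPKM in controls and 1140 and 1911 FPKM in HDAC3-deficient LMPPs, and Rpl31 to 829 and 811 against 1094 and 1639 FPKM. The log2 differences of these sums were 0.70 and 0.71, smaller than those of the named genes alone and below those of Rps10 and Rpl29, so that the order of the largest rises depends on the unnamed transcripts.

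Rpl39, which lines the peptide tunnel, went from 441 and 520 to 610 and 1157 FPKM (0.81 ± 0.26, limma adjusted p = 0.037). Rpl35a, mutated in some families with Diamond-Blackfan anaemia, went from 368 and 330 to 478 and 723 FPKM (0.75 ± 0.21, limma adjusted p = 0.021). Rpl5 went from 24.5 and 20.3 to 34.2 and 41.9 FPKM (0.75 ± 0.18, limma adjusted p = 0.010), and its sum with unnamed transcripts from 615 and 550 to 818 and 1020 FPKM (0.65). In all 3 the second HDAC3-deficient library was the highest. The other members that rose were Rpl29, Rps10, Rpl12 and Rps15a, with log2 differences of 0.73, 0.72, 0.68 and 0.56. Rps10 (chr17:27630415-27635244), a small subunit protein also mutated in Diamond-Blackfan anaemia, went from 468 and 447 to 618 and 922 FPKM (limma adjusted p = 0.028).

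Most of the members with textbook roles did not pass the test in LMPPs. Of the stalk that recruits translation factors, Rplp0 was 2458 and 2539 FPKM in controls and 2911 and 3239 FPKM in HDAC3-deficient LMPPs, with a log2 difference of 0.30 (limma adjusted p = 0.43). Rplp1 and Rplp2 differed by 0.47 each, with limma adjusted p = 0.18 and 0.15. Rpl11, the partner of Rpl5 in the 5S particle that binds Mdm2, was 880 and 870 against 1048 and 1325 FPKM (limma adjusted p = 0.16). The libraries did not overlap for any of these 4 genes. Rps19, the gene most often mutated in Diamond-Blackfan anaemia, was 2972 and 2685 against 2857 and 3870 FPKM and the groups overlapped. Rpl3 and Rpl4, the longest proteins of the large subunit, differed by 0.16 and 0.31 (limma adjusted p = 0.65 and 0.39), less than the median member. Rps14, the gene lost in the 5q- syndrome, differed by 0.52, Rpl10, the last protein to join the large subunit, by 0.49, and Rps27a, made as a fusion to ubiquitin, by 0.35. None of these 3 passed. Rpl22, which is needed for alpha-beta T cell development, was 71.2 and 71.6 against 65.2 and 91.6 FPKM. Rpl13a differed by 0.29, Rpsa by 0.51, Rps6 by 0.10, Rpl41 by 0.60 and Rps29 by 0.51, none past the test. With unnamed transcripts added, the log2 difference was 0.19 for Rps6 and 0.33 for Rps29.

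The size of the rise in LMPPs differed between the HDAC3-deficient libraries. Against the mean of the controls, the median member was 0.17 higher in the first (71 of 77 above 0) and 0.68 higher in the second (77 of 77), while the median of all genes tested was −0.18 and −0.29. In the second library the 21 members with proteins of at most 125 residues had a median of 0.77 and the 21 with at least 204 residues a median of 0.58, and across the 77 members the difference correlated with protein length at r = −0.48. In the first library the medians were 0.13 and 0.22 and r was 0.20. These points share the library and the controls. Without the first HDAC3-deficient library 68 members rose by limma (88.3%, against 8.53% of all genes), and without the second 7 did (9.09% against 4.06%). Without the first control, the one rich in globin, 3 rose (Rpl27, Rpl31 and Rpl5; 3.90% against 2.57% of all genes), and without the second control 2 did (Rpl27 and Rpl31; 2.60% against 1.54%). Beside this, the 5 progenitor markers summed to 1551 and 1686 FPKM in controls and 1266 and 1233 FPKM in HDAC3-deficient LMPPs. The 6 monocyte markers summed to 569 and 551 against 274 and 237 FPKM, most of it Lyz2 (541 and 504 against 236 and 209 FPKM), while Csf1r and Ccr2 overlapped between the groups. The 6 markers of conventional dendritic cells summed to 122 and 91.9 against 62.9 and 59.3 FPKM. Most of this was H2-Ab1 (121 and 90.2 against 61.2 and 57.7 FPKM), and only 1 of the 6 reached 1 FPKM in both controls. Also, the 7 neutrophil markers summed to 1840 and 1934 FPKM in controls and 2669 and 2868 FPKM in HDAC3-deficient LMPPs, most of it Mpo, while the granule gene S100a8 was 316 and 207 against 21.1 and 9.48 FPKM. The part of globin, of these markers or of length in the result was not tested. Scaling changed the size: between median ratio scaling and none the median of all genes moved from −0.04 to −0.23, while the members stood 0.68 and 0.66 above it. After quantile normalisation, which gives every library the same distribution, they stood 0.12 above it and 6 members rose, 7.79% against 6.97% of all genes.

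**Figure D2:**
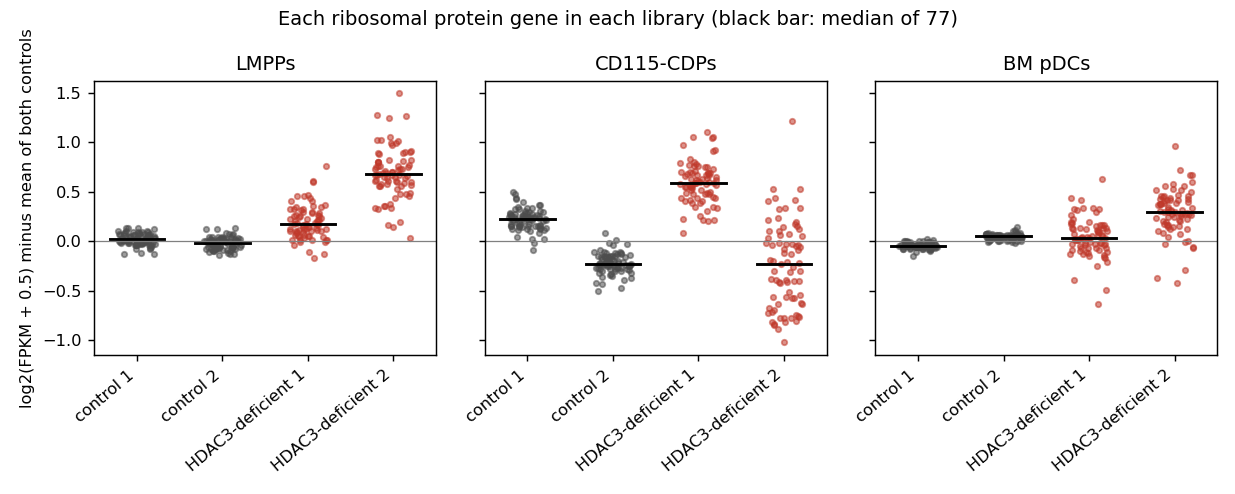
Each point is 1 of the 77 ribosomal protein genes in 1 library, as log2(FPKM + 0.5) minus the mean of both controls of that cell type; black bars are medians. In LMPPs the medians of the HDAC3-deficient libraries are 0.17 and 0.68; in CD115-CDPs they are 0.59 and −0.23, on either side of the mean of the controls, which differ from each other by 0.46; in BM pDCs they are 0.03 and 0.30.

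In CD115-CDPs no member passed the test, and the HDAC3-deficient libraries lay on either side of the mean of the controls. Against the mean of the controls, the first had all 77 members higher (median 0.59), and the second had 22 higher and 55 lower (median −0.23). The controls also differed from each other, by a median of 0.46 over the members. The median fitted log2 difference was 0.16 (55 members positive, 22 negative, range −0.23 to 0.98) against −0.16 over all 10832 genes tested. By limma 0 members were called, and 0% of all genes rose and 0% fell at an adjusted p under 0.05. At an unadjusted p under 0.05, 2 members were higher (Rpl5 and Rpl27) and 0 lower, against 3.06% of all genes higher and 5.95% lower. Both HDAC3-deficient libraries lay above both controls for 13 members (16.9%) and below for 0, against 15.2% and 28.4% of all genes tested.

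The 5 largest differences with no overlap between groups in CD115-CDPs included those of Rpl5, Rpl27, Rpl9 and Rps14. Rpl5 was 51.9 and 42.1 FPKM in controls and 79.1 and 109 FPKM in HDAC3-deficient CD115-CDPs (log2 difference 0.98 ± 0.29, limma adjusted p = 0.46). Rpl27 was 48.5 and 54.7 against 97.3 and 74.2 FPKM (0.72 ± 0.28, limma adjusted p = 0.54). Rpl9 was 707 and 546 against 1220 and 779 FPKM, and Rps14 1588 and 1073 against 2190 and 1772 FPKM. Rpl3 and Rpl4 were above the controls in both HDAC3-deficient libraries too, with 1193 and 974 against 1576 and 1250 FPKM for Rpl3 and 1082 and 928 against 1463 and 1266 FPKM for Rpl4. Some members, long as well as short, lay above both controls in one HDAC3-deficient library and below both in the other. Among the long ones Rpl8 (257 residues) was 612 and 495 against 888 and 371 FPKM. Among the short ones Rpl39 was 269 and 149 against 416 and 116 FPKM and Rps29 506 and 341 against 579 and 224 FPKM. Rpl41, the shortest of all, was 1849 and 1162 against 2329 and 823 FPKM.

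In the second HDAC3-deficient CD115-CDP library, members of at most 125 residues had a median of −0.30 and those of at least 204 residues a median of −0.02 against the controls, and the difference correlated with protein length at r = 0.39 across the 77 members. This is the library with fewest genes above 0. The second control differed from the first in the same manner, with a median of −0.57 for the short and −0.31 for the long members. Without the second HDAC3-deficient library 14 members rose by limma (18.2%, against 5.28% of all genes) and 0 fell (against 7.60%). Without the first, 2 rose (Rpl5 and Rpl27; 2.60% against 15.1%) and 15 fell (19.5%), and both shares were below those of all genes. The part of library quality in this was not tested.

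In BM pDCs 29 members rose and 1 fell by edgeR's quasi-likelihood test on the estimated counts, with 47 not called (adjusted p under 0.05). The share of members that rose was 37.7%, against 21.6% of all 12716 genes tested, and that of members that fell 1.30%, against 22.5%. The median log2 difference was 0.32 (range −0.39 to 0.94) against −0.01 over all genes, with 73 members positive and 4 not, among them Rpl31, Rpl30 and Rpl35a (the last at 0.00). Of the large subunit 19 of 46 rose and of the small subunit 10 of 31. In FPKM, both HDAC3-deficient libraries lay above both controls for 36 members and below for 5, among them these 3 and Rps21, against 27.2% and 48.9% of all genes tested. Scaling by trimmed mean of M-values raised all log2 differences in this fit. With library totals alone the median was 0.18 for the members and −0.14 for all genes. Then 13 members rose (16.9%, against 16.4% of all genes) and 3 fell (3.90% against 30.3%), among them Rpl31 and Rpl30. By limma on log2(FPKM + 0.5), 10 members rose (13.0% against 17.2%) and 3 fell (3.90% against 33.9%). In neither was the share that rose clearly above that of all genes.

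Rpsa (chr9:120127766-120132369), the small subunit protein also known as the laminin receptor, rose most in BM pDCs. It was 801 and 855 FPKM in controls and 1278 and 1614 FPKM in HDAC3-deficient BM pDCs, a log2 difference of 0.94 ± 0.14 (edgeR adjusted p = 0.0019), or 1.92-fold. The groups did not overlap, and the call held when any 1 library was left out. Of the stalk proteins, Rplp0 and Rplp2 rose. Rplp0 (chr5:115559467-115563729) rose from 1333 and 1354 to 1822 and 2138 FPKM (0.70 ± 0.12, edgeR adjusted p = 0.0033). Rplp2 (chr7:141447651-141451359) rose from 863 and 930 to 1197 and 1316 FPKM (0.62 ± 0.10, edgeR adjusted p = 0.0029). Rplp1, the third stalk protein, was 1880 and 1878 against 1940 and 2338 FPKM, a log2 difference of 0.32 that did not pass (edgeR adjusted p = 0.070). Rpl12, which sits at the base of the stalk, rose by 0.44 ± 0.11 (edgeR adjusted p = 0.019).

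Of the small subunit, Rps10 rose from 965 and 994 to 1228 and 1616 FPKM (0.68 ± 0.15, edgeR adjusted p = 0.0096) and Rps24 (chr14:24490678-24496960) from 1591 and 1785 to 2106 and 2672 FPKM (0.63 ± 0.15, edgeR adjusted p = 0.011). Rps19 (chr7:24884592-24889811) rose from 473 and 472 to 580 and 714 FPKM (0.60 ± 0.13, edgeR adjusted p = 0.0088). All 3 are genes of Diamond-Blackfan anaemia, and in none did the groups overlap. Rps3, at the mRNA entry, rose by 0.59, Rps12 by 0.56 and Rps15a by 0.53. Rpl5 rose by 0.35 (edgeR adjusted p = 0.040) whereas Rpl11, its partner, was 983 and 1104 against 1016 and 1297 FPKM and did not pass (edgeR adjusted p = 0.15). Rpl4 rose by 0.44 (edgeR adjusted p = 0.015) and Rpl3 had a log2 difference of 0.27 (edgeR adjusted p = 0.065).

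Rpl30 (928 and 997 against 732 and 742 FPKM; −0.25, edgeR adjusted p = 0.061) and Rpl31 (1032 and 1066 against 745 and 855 FPKM; −0.26, edgeR adjusted p = 0.10) were below the controls in both HDAC3-deficient BM pDC libraries without passing. Rpl31 and Rpl31-ps12 together were 2657 and 2755 FPKM in controls and 1841 and 2233 FPKM in HDAC3-deficient BM pDCs. Several abundant members differed little. Rpl10 was 2273 and 2444 against 2194 and 2362 FPKM, Rpl41 1508 and 1592 against 1378 and 1628 FPKM, Rpl13a 1402 and 1487 against 1318 and 1530 FPKM, and Rps29 1331 and 1294 against 1232 and 1550 FPKM. The groups overlapped in each. They overlapped too for Rps14, Rps6, Rps27a and Rpl22, with log2 differences of 0.37, 0.18, 0.18 and 0.08 and edgeR adjusted p of 0.088, 0.18, 0.20 and 0.52.

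Beside these differences the 9 pDC markers summed to 10795 and 11220 FPKM in controls and 5598 and 5198 FPKM in HDAC3-deficient BM pDCs, the 5 progenitor markers to 521 and 554 against 657 and 730 FPKM (Kit, the stem cell factor receptor, was 1.77 and 1.54 against 8.52 and 9.77 FPKM), the 6 monocyte markers to 181 and 152 against 206 and 274 FPKM, and the 6 markers of conventional dendritic cells to 994 and 988 against 1162 and 1046 FPKM. In the monocyte sum Lyz2 overlapped between the groups (112 and 90.8 against 78.9 and 126 FPKM), while Ccr2 was 37.8 and 34.6 against 97.7 and 115 FPKM. Most of the sum for conventional dendritic cells was H2-Ab1 (844 and 845 against 851 and 735 FPKM), where the groups overlapped. Clec9a, a marker of cross-presenting dendritic cells, was 46.3 and 51.2 against 208 and 196 FPKM. The 7 erythroid genes summed to 267 and 388 against 664 and 193 FPKM. Their part in the result was not tested. In FPKM the median member was 0.03 above the mean of the controls in the first and 0.30 in the second HDAC3-deficient library. Without the first HDAC3-deficient library 69 members rose (89.6%, against 27.2% of all genes) and without the second 28 did (36.4% against 23.3%). Without the first control 1 rose (Rpsa; 1.30% against 12.3% of all genes) and without the second control 2 did (Rpsa and Rplp2; 2.60% against 11.4%). In these edgeR fits, scaled by trimmed mean of M-values, the share of members that rose was thus above that of all genes with both controls. It was below it with either control left out. Rpsa rose in all 4 of these fits, and Rplp0, Rps10 and Rps24 did not pass in either fit that left out a control.

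**Figure D3:**
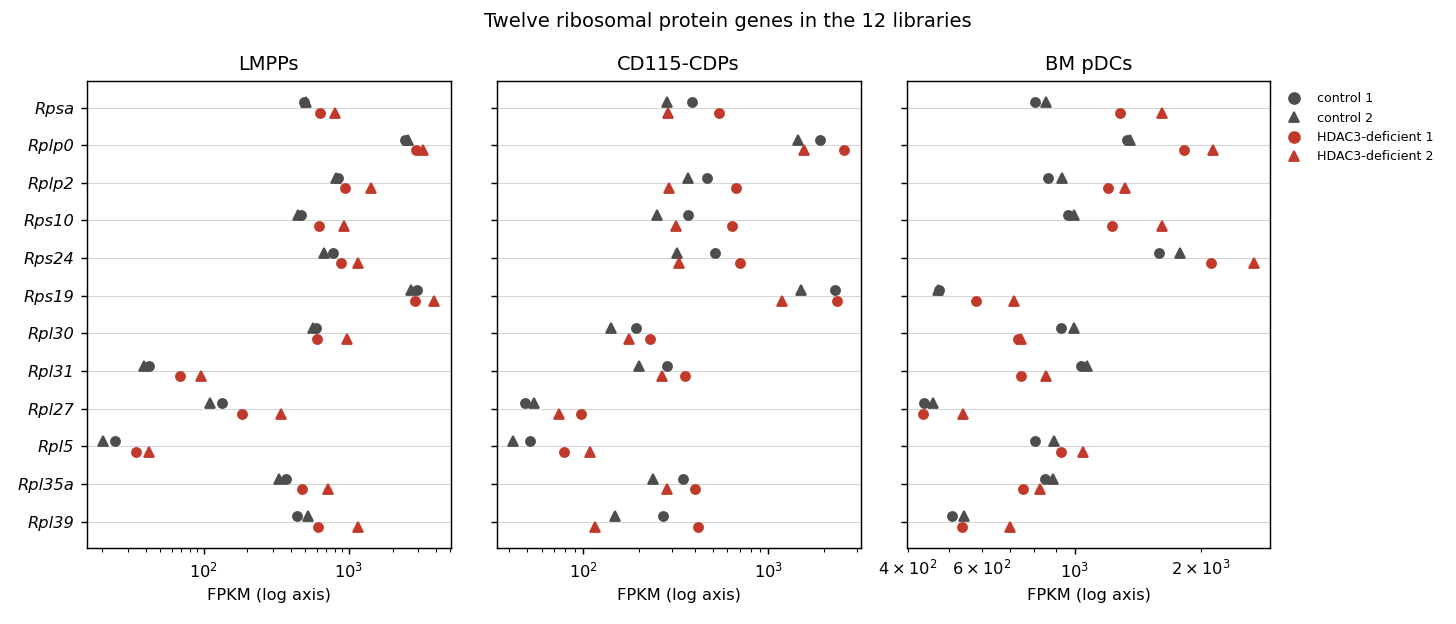
FPKM (log axis; its range differs between panels) of 12 ribosomal protein genes in each of the 12 libraries; circles are libraries 1 and triangles libraries 2, grey control and red HDAC3-deficient. In BM pDCs Rpsa goes from 801 and 855 to 1278 and 1614 FPKM and Rpl30 from 928 and 997 to 732 and 742 FPKM; in LMPPs the red points of Rpl31, Rpl27 and Rpl5 lie to the right of the grey ones.

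Of the 9 members that rose in LMPPs, 5 (55.6%) also rose in BM pDCs: Rpl5, Rpl12, Rpl29, Rps10 and Rps15a. Of all 77 members, 29 (37.7%) rose in BM pDCs, and these 5 were 17.2% of the 29. Across the 77 members the log2 differences correlated at r = −0.10 between LMPPs and BM pDCs, at r = 0.06 between CD115-CDPs and BM pDCs and at r = 0.45 between LMPPs and CD115-CDPs. These comparisons share no libraries, but LMPPs and CD115-CDPs were lysed by the same low-input procedure and BM pDCs by another. Rps10 stood above the median member in each cell type, by 0.29 in LMPPs, 0.39 in CD115-CDPs and 0.36 in BM pDCs, and no other member stood as far from it on the same side in all 3. Rpl13a stood below the median member in each, by 0.14, 0.35 and 0.20. Rpl31 stood 0.57 above it in LMPPs and 0.57 below it in BM pDCs.

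Other genes of protein synthesis were set beside the members. The 77 measured proteins of the mitochondrial ribosome, which translates the few mRNAs of that organelle, had a median log2 difference of 0.30 in LMPPs (10 rose, 1 fell, by limma) and 0.20 in CD115-CDPs (0 called). The LMPP calls were 13.0% and 1.30% of the list, beside 4.31% and 18.8% of all genes tested. In BM pDCs the median of the list was −0.18, with 3 that rose and 22 that fell by edgeR. These are 3.90% and 28.6% of the list, beside 21.6% and 22.5% of all genes tested, so that the share that fell was near that of all genes. Mrps6 fell there from 19.9 and 18.6 to 10.3 and 8.49 FPKM (−0.90, edgeR adjusted p = 0.0020) and Mrpl54 from 45.2 and 44.4 to 27.3 and 26.3 FPKM (−0.61, edgeR adjusted p = 0.0030). In LMPPs Mrpl1 rose from 10.5 and 11.0 to 20.97 and 23.6 FPKM (1.02, limma adjusted p = 0.0025). The difference between these families was not tested.

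Other genes whose mRNAs are known to carry a TOP tract, elongation factors among them, had medians close to those of the ribosomal proteins in LMPPs and BM pDCs. Of 18, 6 rose and 1 fell in LMPPs (median 0.41), 33.3% and 5.56% of the list, against 4.31% and 18.8% of all genes tested. In CD115-CDPs 0 were called (median 0.40). In BM pDCs 12 rose and 0 fell (median 0.35), 66.7% and 0%, against 21.6% and 22.5% of all genes. In BM pDCs Eef2, which moves the ribosome along the mRNA, rose from 978 and 935 to 1398 and 1553 FPKM (0.76, edgeR adjusted p = 0.0016) and Pabpc1, the poly(A)-binding protein, from 478 and 452 to 770 and 786 FPKM (0.88, edgeR adjusted p = 4.8e-04). Vim, an intermediate filament gene on the list, rose by 1.68 (edgeR adjusted p = 1.5e-04), whereas it was the gene of the list that fell in LMPPs, by 0.51 on the log2 scale (limma adjusted p = 0.049), and was 292 and 301 against 167 and 92.5 FPKM in CD115-CDPs without passing. In LMPPs Npm1, a nucleolar chaperone, rose from 701 and 759 to 1289 and 1383 FPKM (0.87, limma adjusted p = 0.0094) and Rack1, a scaffold on the small subunit, from 553 and 505 to 834 and 1039 FPKM (0.82, limma adjusted p = 0.011). Fau, a ribosomal protein made as a fusion to a ubiquitin-like protein, rose in BM pDCs by 0.42 (edgeR adjusted p = 0.043) and did not pass in LMPPs.

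Of 25 other initiation factors, 4 rose and 0 fell in LMPPs (median 0.41) and 0 were called in CD115-CDPs (median 0.45). Counts in BM pDCs were 4 that rose and 1 that fell (median 0.00). The share that rose was 16.0% in LMPPs, above the 4.31% of all genes tested there. It was 16.0% in BM pDCs as well, but below the 21.6% of all genes there. The 1 that fell in BM pDCs was a smaller share than the 22.5% of all genes. Eif4e, the cap-binding protein, was the one that fell, from 32.7 and 36.3 to 26.6 and 22.7 FPKM (−0.35, edgeR adjusted p = 0.029). Of 14 factors that assemble ribosomes, 3 rose and 0 fell in LMPPs and 2 rose and 3 fell in BM pDCs. These are 21.4% and 0% of the list in LMPPs, against 4.31% and 18.8% of all genes tested. In BM pDCs they are 14.3% and 21.4%, neither above the share of all genes. Ncl rose in LMPPs and in BM pDCs, by 0.70 (limma adjusted p = 0.0079) and 0.43 (edgeR adjusted p = 0.0090).

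Of 5 paralogs of ribosomal proteins tested in BM pDCs, 0 rose (against 21.6% of all genes) and 3 fell (60.0% against 22.5%), with a median of −0.38. Rps27l, a p53-induced copy of Rps27, fell from 53.2 and 58.5 to 35.9 and 26.2 FPKM (−0.70, edgeR adjusted p = 0.0071). Rpl36al fell from 370 and 435 to 263 and 297 FPKM (−0.38, edgeR adjusted p = 0.034) while Rpl36a itself rose by 0.54 (edgeR adjusted p = 0.010). Rpl3l, a muscle form of Rpl3, fell from 4.01 and 4.29 to 1.38 and 0.75 FPKM (−1.63, edgeR adjusted p = 0.0013). In LMPPs 1 of 6 paralogs rose (16.7%, against 4.31% of all genes). It was Rps27l, which went from 557 and 447 to 672 and 1114 FPKM (0.79, limma adjusted p = 0.029). Reads of such copies can be split by the counting, and the paralogs' values are uncertain to that extent.

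Of the 12 genes of the pathway that controls TOP mRNAs, 0 rose and 1 fell in LMPPs (8.33%, against 18.8% of all genes tested). In CD115-CDPs 0 were called. In BM pDCs 2 rose and 2 fell, 16.7% each, against 21.6% and 22.5% of all genes, so that no share was above that of all genes. Myc, a transcription factor that acts on many genes of ribosome synthesis, rose in BM pDCs from 2.63 and 2.90 to 14.55 and 14.96 FPKM (2.55 ± 0.12, edgeR adjusted p = 3.3e-05). In CD115-CDPs it was 115 and 155 against 405 and 303 FPKM (limma adjusted p = 0.35) and in LMPPs 422 and 345 against 570 and 460 FPKM (limma adjusted p = 0.13). Rheb, the activator of mTOR, fell in BM pDCs by 0.40 on the log2 scale, and Rps6kb1, which phosphorylates Rps6, by 0.29 (edgeR adjusted p = 0.0092 and 0.032). In LMPPs Rptor, a subunit of the mTOR complex, fell from 7.73 and 9.32 to 4.35 and 4.71 FPKM (limma adjusted p = 0.023). Larp1 was 11.1 and 8.04 against 14.8 and 13.4 FPKM in LMPPs and did not pass (limma adjusted p = 0.084).

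**Figure D4:**
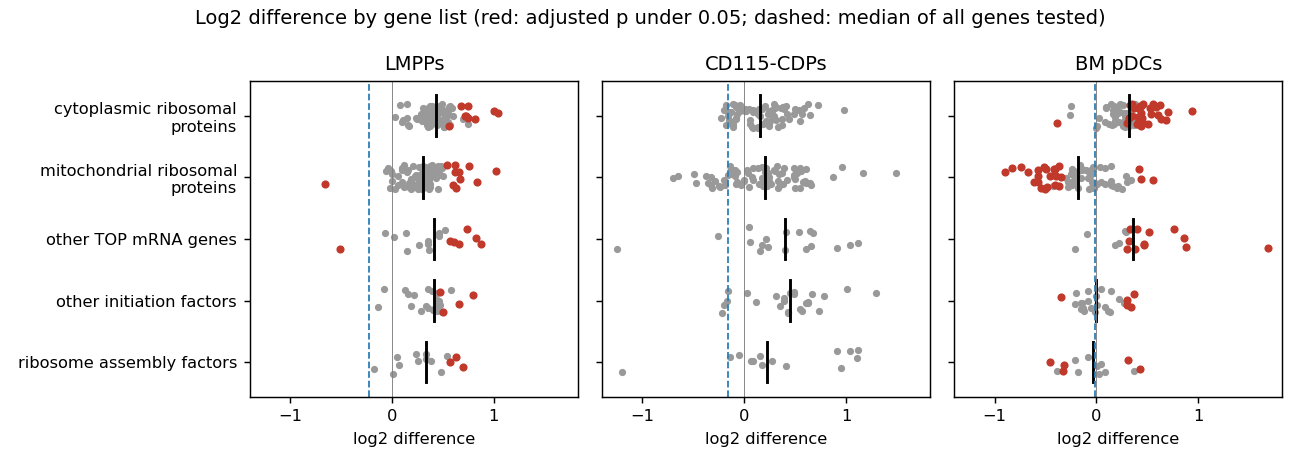
Log2 differences (HDAC3-deficient minus control) of the genes on 5 lists in each cell type; red points have an adjusted p under 0.05, black bars are list medians and the dashed line is the median of all genes tested. In BM pDCs the cytoplasmic ribosomal proteins and other TOP genes have medians of 0.32 and 0.35 and the mitochondrial ribosomal proteins a median of −0.18.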

How the data were processed

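RNA of sorted cells was sequenced from 12 libraries, 2 per genotype in each of 3 cell types. Bowtie2, RSEM and the build mm10 stand in the submitters' notes without versions. Per the file headers, the authors deposited FPKM for all cell types and, for BM pDCs, the estimated counts (not whole numbers) and TPM of their quantification; the deposited TPM and the authors' means were not used. The members and lists were chosen with earlier results of these data known. LMPP and CD115-CDP values were tested as log2(FPKM + 0.5) by limma 3.58.1 with a trend on genes of at least 1 FPKM in 2 libraries. BM pDC estimated counts were rounded and tested by edgeR 4.0.16 (trimmed mean of M-values, quasi-likelihood F test), with DESeq2 1.42.0 as an alternative; R was 4.3.3. Each cell type was fitted alone, without covariates, and p-values were adjusted by Benjamini-Hochberg over all genes tested; a call is an adjusted p under 0.05. Genes were matched between tables by gene identifier. Gene coordinates are those of RefSeq and protein lengths those of GENCODE, both on GRCm38. Named members are a fixed set with textbook roles, the 5 largest rises and falls with no overlap between groups (called ones where there were any), the 3 highest and 3 lowest in controls, and up to 4 genes a list by p; the others named, among them Rpl30, were chosen after their values were seen. Fits were tested on simulated data. The unnamed transcripts of the LMPP table were added to members of the same KEGG orthology; this was chosen after the data were seen. Some genes that the rule names are not reported here; they stay in the counts and medians.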

Additional observations from a re-analysis of the deposited data

Results flagged for a closer look

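Rpl30 and Rpl31 lay above both controls in both HDAC3-deficient LMPP libraries and below both controls in both HDAC3-deficient BM pDC libraries. The log2 difference was 0.40 in LMPPs and −0.25 in BM pDCs for Rpl30, and 1.0 and −0.26 for Rpl31. The difference between the cell types was not tested, since the tables were normalised separately.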

How the results depend on the processing

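Left out 1 at a time, single libraries moved the number of members that rose from 2 to 68 in LMPPs, from 0 to 14 in CD115-CDPs and from 1 to 69 in BM pDCs, and the number that fell from 0 to 15 in CD115-CDPs and from 0 to 3 in BM pDCs; the lone library left in a group was assumed to vary like the others. The BM pDC median ranged from 0.14 to 0.47 over these fits. Rpl39 in CD115-CDPs turned to −0.78 without the first HDAC3-deficient library and was 1.05 without the second. In LMPPs 3 members rose without the trend in limma (3.90%, against 2.04% of all genes) and 0 without a filter on low values (against 0.306%). Of the 70 members with at least 50 FPKM in all controls 5 rose, against 4.31% of all genes. In BM pDCs DESeq2 gave 45 that rose (58.4%, against 13.7% of all genes) and 2 that fell (2.60% against 12.7%). Library totals alone gave 13 (16.9% against 16.4%) and 3 (median 0.18). Limma on FPKM gave 10 (13.0% against 17.2%) and 3 (median 0.17), and no filter on low counts 15 that rose (19.5% against 13.9%). These settings did not change which way the BM pDC median lay. With library totals alone the share that rose was near that of all genes, and by limma it was below it. With the unnamed transcripts added, an alternative chosen after the data were seen, the LMPP median was 0.41. The libraries of both genotypes share replicate numbers, but nothing says that these mark a shared animal or day. Deviations of same-numbered libraries correlated at −0.10 in LMPPs, 0.24 in CD115-CDPs and −0.24 in BM pDCs. With the number as a replicate block, 10 members rose in LMPPs (13.0%, against 4.07% of all genes) and 0 in CD115-CDPs (against 0.942%). In BM pDCs 29 rose (37.7% against 19.5%) and 1 fell (1.30% against 20.3%). The medians were 0.43 in LMPPs, 0.16 in CD115-CDPs and 0.31 in BM pDCs.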
